A study of Mus musculus with 8 samples.

Results

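The genes described here carry salt and water through the distal nephron of the mouse kidney, from the thick ascending limb of the loop of Henle to the collecting duct. They were chosen by name, as 34 genes with known roles in these segments, out of 22485 genes named on the arrays, and they held 50 of 45220 features (array spots). All 34 were on the arrays, 29 could be tested between the groups, and the other 5 are accounted for below.

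The thick ascending limb takes up sodium, potassium and chloride together without water and so dilutes the urine, and the distal convoluted tubule takes up sodium chloride under the control of WNK kinases. In the collecting duct, principal cells take up sodium through the epithelial sodium channel under aldosterone and water through aquaporins under vasopressin, while intercalated cells secrete acid or bicarbonate. All of this rests on the sodium pump, and these segments are rich in mitochondria.

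Kidney RNA of male mice on a 129/SvJ background was compared on 8 two-colour oligonucleotide arrays. SDHD-ESR mice carried 1 null and 1 floxed allele of Sdhd, which encodes a membrane anchor of mitochondrial complex II (succinate dehydrogenase), together with a tamoxifen-inducible Cre-ER recombinase. The +/- mice carried the same null and floxed alleles without Cre, and the +/+ mice carried a floxed and an intact allele without Cre. Tamoxifen (100 µg/g, on 4 successive days from 9 weeks of age) is given in the labels for all groups, and kidneys were taken at 10 weeks, 1 week after treatment began. Every array held RNA of 2 mice, so the 4 arrays per group stood for 8 mice, and the reference on every array was 1 pool of RNA from 8 +/+ mice. The promoter that drives Cre is not given in the sources used here. Since SDHD-ESR mice differed from +/- mice in carrying Cre as well as in losing the second Sdhd allele, these cannot be told apart.

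Each value is the log2 ratio to the +/+ pool relative to the median of each array, so that 0 is the level of the pool for a typical gene. The sign of all deposited values was turned, because Sdhd stood above the pool on all 8 arrays as deposited. The direction is therefore likely and not certain, and every higher and lower below rests on it. Before centring, array medians ran from -0.19 to 0.41 in +/- and from -0.06 to 0.94 in SDHD-ESR. Slide 1 carried replicates 1 and 2 of both groups and slide 2 replicates 3 and 4, at positions 1 and 2 for +/- and 3 and 4 for SDHD-ESR, so the effects of position and of genotype cannot be told apart. With 4 arrays per group the precision is limited, and the brightness of the spots was not used here.

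Sdhd itself measured -0.79, -0.40, -0.92 and -0.93 in the +/- arrays against -4.26, -3.65, -5.04 and -3.25 in SDHD-ESR. All SDHD-ESR arrays were below all +/- arrays, by 3.29 ± 0.37 (SE, n = 4 arrays per group; exact permutation test, two-sided p = 0.0286, at the lower limit of this design; limma adjusted p = 0.108). The sign was turned on the values of Sdhd, so its fall is not an independent result. Only the separation of the groups, and not its direction, is read from these tests. It is not known whether the single Sdhd feature falls inside the deleted part.

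No distal nephron gene passed an adjusted p of 0.05 between SDHD-ESR and +/- (limma with Benjamini-Hochberg adjustment over 20076 genes). Over all genes 3 passed, which is 0.0149%, and they were Kynu, Tex12 and Tmprss9. At an unadjusted p of 0.05 or less, 3 of the 29 tested members were higher in SDHD-ESR, against 4.04% of all genes, and 0 were lower, against 3.86% of all genes. The same 3 members were those whose SDHD-ESR arrays all lay above all +/- arrays, which held for 2.87% of all genes, and no member lay wholly below, against 2.85% of all genes. They were Slc12a3, the thiazide-sensitive sodium chloride cotransporter of the distal convoluted tubule, Scnn1a, the alpha subunit of the epithelial sodium channel, and Atp6v0a4, the a4 subunit of the proton pump of intercalated cells. In all, 22 members were higher and 7 lower in SDHD-ESR. Their median difference was 0.12, against 0.02 over all genes, of which 53.8% were higher. As deposited, without centring, 28 members were higher and 1 lower, with medians of 0.38 over the members and 0.28 over all genes, of which 85.9% were higher. The count of 3 became 7 without replicate 4 of +/- and 6 without replicate 4 of SDHD-ESR, and none of these passed adjustment. The 7 was out of 30 members, since leaving out an array lowered the values required per group by 1 and let in Scnn1g. In whole kidney, more RNA per cell and more cells of a type cannot be told apart.

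**Figure D1:**
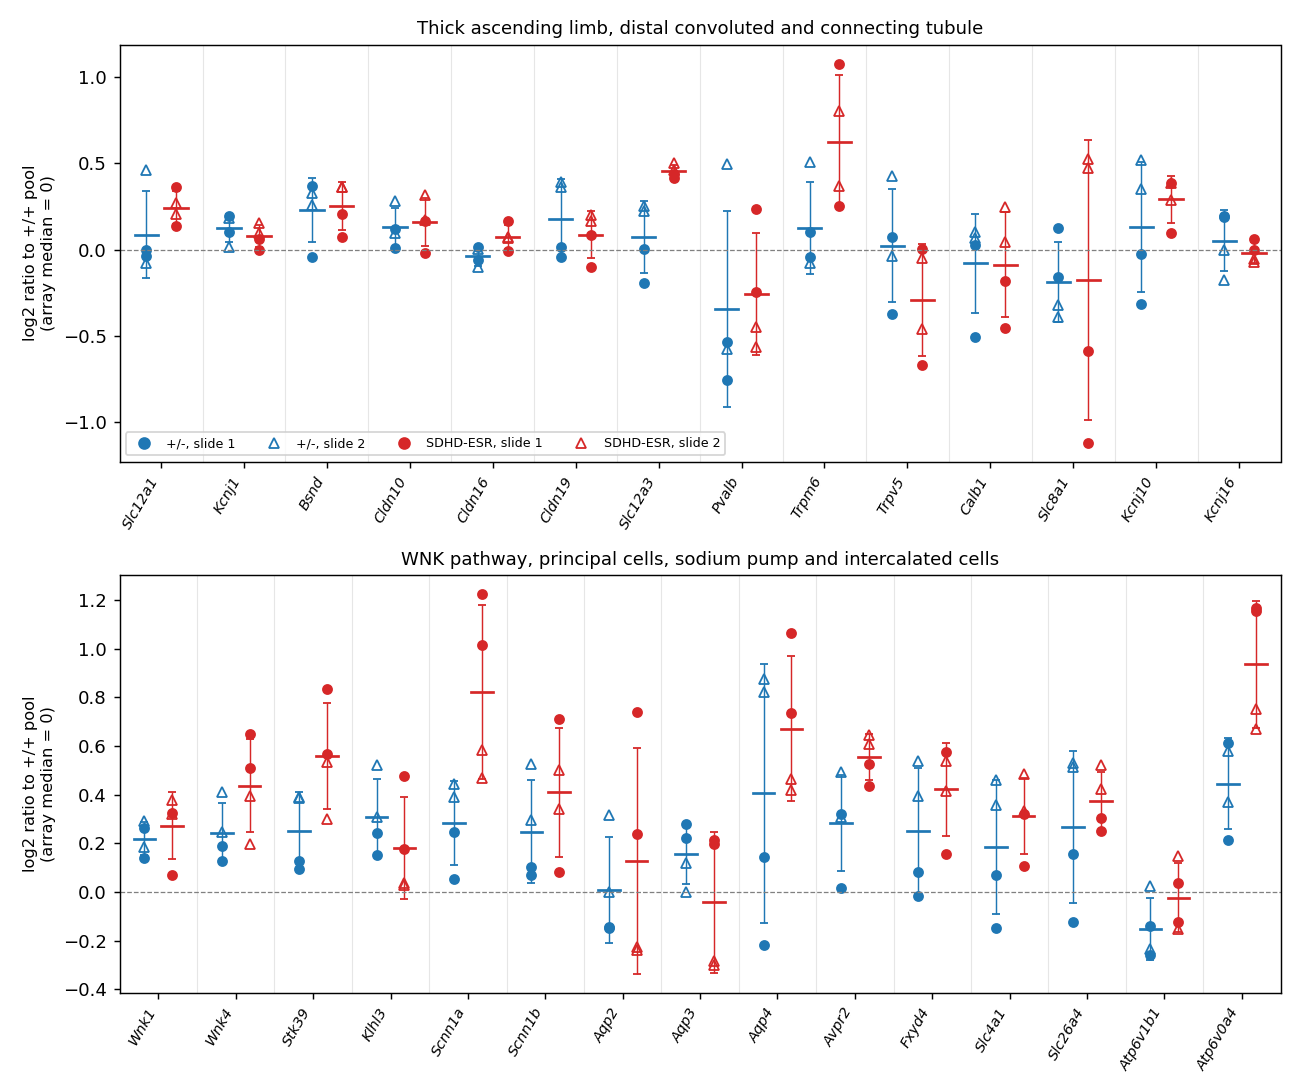
Log2 ratio to the +/+ pool (vertical axis, array median = 0) of each of the 29 tested genes on each array, with +/- in blue and SDHD-ESR in red, filled circles for slide 1 and open triangles for slide 2, and the group mean ± SD as bars (n = 4 arrays). In Slc12a3, Scnn1a and Atp6v0a4 every red point stands above every blue point, and in the other 26 genes the groups overlap.

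The promoters of Slc12a3 and Atp6v0a4 are shown because, of the 3 genes whose groups did not overlap, these have a sequence in the promoter table used (GRCm38.p6). That table held none for Scnn1a. Each stretch is written 5′ to 3′ on the strand of its gene and ends at the base before the annotated gene, Slc12a3 at chr8:94328958-94329108 on the plus strand and Atp6v0a4 at chr6:38124587-38124836 on the minus strand. Capitals mark matches on either strand to the motifs named below.
Slc12a3: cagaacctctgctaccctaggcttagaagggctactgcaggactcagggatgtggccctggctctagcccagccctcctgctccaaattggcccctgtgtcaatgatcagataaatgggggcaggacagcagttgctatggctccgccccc
Atp6v0a4: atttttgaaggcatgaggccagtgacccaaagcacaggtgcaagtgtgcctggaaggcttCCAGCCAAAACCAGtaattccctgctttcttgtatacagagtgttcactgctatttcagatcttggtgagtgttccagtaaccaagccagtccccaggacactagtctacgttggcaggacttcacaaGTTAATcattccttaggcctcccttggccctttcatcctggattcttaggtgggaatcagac
The Atp6v0a4 stretch of 250 bases holds a TFCP2L1 motif (CCAG, 6 bases of any kind and CCAG) that begins 190 bases before the start of the gene, and an HNF1 motif (GTTAAT) that begins 62 bases before it. TFCP2L1 is a transcription factor of the collecting duct and HNF1 proteins are transcription factors of the tubule epithelium. The Slc12a3 stretch of 151 bases holds none of the 5 motifs searched on both strands, which says only that these letters are not in this window. The table had a promoter for 28 of the 34 members, here searched over the whole window of each entry. A member was counted once if any of its entries matched, while each percentage is over single promoter sequences. Counts and percentages are therefore in unlike units. The TFCP2L1 motif was in 4 of these (Atp6v0a4, Avpr2, Fxyd4 and Wnk1), against 3.47% of 32544 promoters, and the HNF1 motif in 4 (Atp6v0a4, Cldn10, Kcnj16 and Umod), against 7.13%. A forkhead motif (TGTTTAC) was in 4 (Atp6v1b1, Avpr2, Egf and Slc12a1), against 3.66%, and a steroid receptor motif (AGAACA) in 7, against 18.9%. The grainyhead motif was in 0 of the 28, against 0.147%. A match is a run of letters and not a shown binding site.

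Several genes of these segments gave no usable ratio. Umod, which encodes uromodulin, the main protein of normal urine, had its only feature within 0.01 of 0 before centring on 6 of 8 arrays. All 10 features of Egf, the epidermal growth factor precursor of the distal convoluted tubule, were that close to 0 on 6 to 8 arrays. The same held for Atp1b1, the beta subunit of the sodium pump, and for both features of Fxyd2, its gamma subunit. Such values were left out, as spots saturated in both channels would read this way, and whether these spots were saturated was not tested. A ratio pinned at 0 turns into minus the array median after centring, and 2 potassium channel genes kept in the tests show this in part. For Kcnj16, all 4 arrays of slide 1 were within 0.01 of 0, and for Kcnj1 3 of them were, so their slide 1 values carry little beyond the array medians. Scnn1g, the gamma subunit of the epithelial sodium channel, had a value on only 2 SDHD-ESR arrays and was not tested with all 8 arrays. It measured -4.65, -1.85, -4.13 and -1.73 in the +/- arrays against -0.84 and -1.19 in replicates 2 and 4 of SDHD-ESR.

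**Figure D2:**
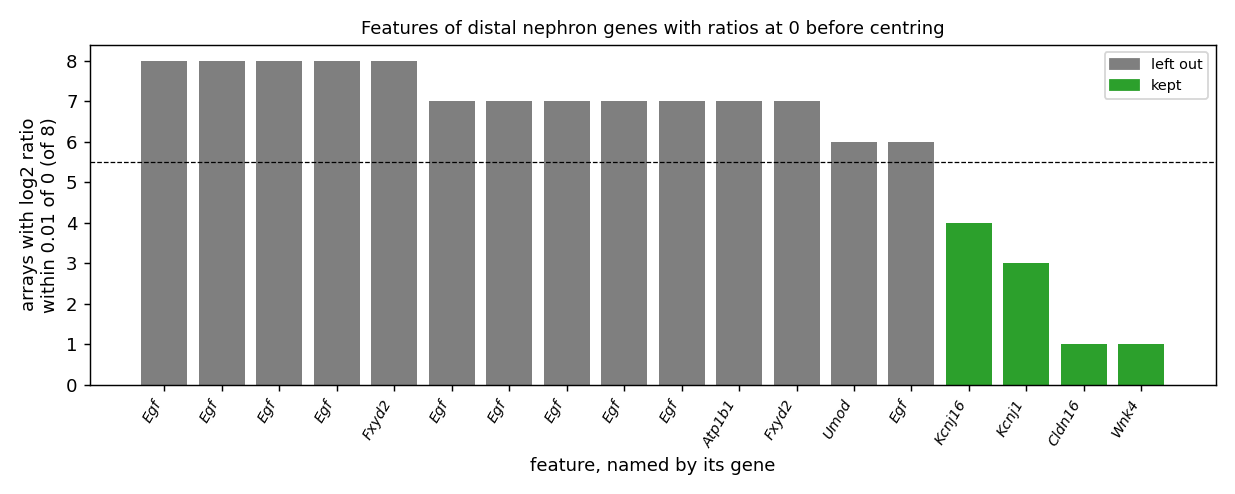
Number of arrays, of 8, on which the log2 ratio before centring lay within 0.01 of 0 (vertical axis), for each feature of a distal nephron gene with at least 1 such array (horizontal axis, named by gene). The dashed line marks the limit of 6 arrays, and the 14 grey features of Egf, Fxyd2, Atp1b1 and Umod above it were left out, while Kcnj16, Kcnj1, Cldn16 and Wnk4 below it (green) were kept.

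In the thick ascending limb, 6 of 7 genes were tested, 4 were higher and 2 lower in SDHD-ESR, and none passed the unadjusted threshold. Their median difference was 0.03. Slc12a1, the furosemide-sensitive sodium potassium chloride cotransporter, measured 0.00, -0.04, -0.08 and 0.46 in the +/- arrays against 0.14, 0.36, 0.27 and 0.21 in SDHD-ESR. Replicate 4 of +/- stood above all other arrays, and the difference of 0.16 ± 0.14 (SE) did not pass (exact permutation test, two-sided p = 0.286). Cldn16, a claudin of the tight junction through which calcium and magnesium pass, measured 0.01, -0.06, 0.00 and -0.10 in the +/- arrays against -0.01, 0.17, 0.07 and 0.07 in SDHD-ESR. For Cldn16 3 SDHD-ESR arrays stood above all +/- arrays, by a mean of 0.11 ± 0.07 over all arrays (exact permutation test, two-sided p = 0.0857). Its partner Cldn19 differed by -0.09 ± 0.13 and Cldn10, which forms sodium-selective pores, by 0.03 ± 0.10. Bsnd (barttin, the subunit of the chloride channels) differed by 0.02 ± 0.12, and Kcnj1 (ROMK, the channel that recycles potassium) by -0.05 ± 0.08. The 95% interval of Cldn10 ran from -0.20 to 0.27 and that of Kcnj1 from -0.23 to 0.13.

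In the distal convoluted and connecting tubule, 8 of 9 genes were tested, with 5 higher and 3 lower. Slc12a3 (chr8:94329109-94366222, plus strand) measured -0.19, 0.00, 0.26 and 0.22 in the +/- arrays against 0.42, 0.44, 0.50 and 0.46 in SDHD-ESR. The SDHD-ESR arrays were close together (SD 0.04, against 0.21 in +/-) and all above the +/- arrays. The difference was 0.38 ± 0.11 (SE), a fold of 1.30 (exact permutation test, two-sided p = 0.0286; limma adjusted p = 0.529). As deposited, without centring, the groups overlapped and the difference was 0.64. Trpm6, the magnesium channel of the distal convoluted tubule, measured 0.10, -0.04, -0.07 and 0.51 in the +/- arrays against 0.25, 1.08, 0.80 and 0.37 in SDHD-ESR. Of its SDHD-ESR arrays 2 stood above all +/- arrays, and the difference of 0.50 ± 0.22 did not pass (exact permutation test, two-sided p = 0.0857).

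The calcium-handling genes of this segment showed no shared direction. Trpv5, the calcium channel of the luminal membrane, was the member with the lowest difference of those tested, -0.32 ± 0.22 (95% interval -0.82 to 0.19). Calb1, the calcium-binding calbindin, differed by -0.01 ± 0.20. Slc8a1, the sodium calcium exchanger of the opposite membrane, measured 0.13, -0.16, -0.32 and -0.39 in the +/- arrays against -1.12, -0.59, 0.52 and 0.47 in SDHD-ESR. Its SDHD-ESR arrays were low on slide 1 and high on slide 2, and its 2 features differed between groups by -0.14 ± 0.78 and 0.15 ± 0.08. Pvalb, the calcium-binding parvalbumin of the early distal convoluted tubule, had features of opposite sign too (0.22 and -0.05), with 0.09 ± 0.31 for the gene. The potassium channel genes Kcnj10 and Kcnj16 differed by 0.16 ± 0.19 and -0.07 ± 0.10, the latter with the near-0 values described above.

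The WNK pathway raises the activity of the sodium chloride cotransporter through the kinase SPAK, which Stk39 encodes. Of its 4 members 3 were higher and 1 lower, with a median difference of 0.12, and none passed the unadjusted threshold. Stk39 measured 0.10, 0.13, 0.39 and 0.39 in the +/- arrays against 0.57, 0.83, 0.54 and 0.30 in SDHD-ESR. All but replicate 4 of SDHD-ESR were above the +/- arrays, with a difference of 0.31 ± 0.14 (exact permutation test, two-sided p = 0.0857). Wnk4 differed by 0.19 ± 0.12. Wnk1 differed by 0.05 ± 0.09 (features 0.11 and -0.01), and Klhl3, the adaptor that sends WNK kinases to degradation, by -0.13 ± 0.13.

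Principal cell genes had the highest median difference among the roles with more than 1 tested member, 0.21 over 6 tested genes, of which 5 were higher. Scnn1a (chr6:125314271-125344943) measured 0.25, 0.05, 0.39 and 0.44 in the +/- arrays against 1.02, 1.22, 0.58 and 0.47 in SDHD-ESR. Every SDHD-ESR array was above every +/- array, though replicate 4 of SDHD-ESR only just. The difference was 0.54 ± 0.19 (SE), a fold of 1.45 (exact permutation test, two-sided p = 0.0286; limma adjusted p = 0.578). The study named this gene from these same samples, so its choice is not independent of its values. It missed the unadjusted threshold without any 1 of replicates 1 and 2 of either group, with differences of 0.41 to 0.53. Scnn1b, the beta subunit of the channel, differed by 0.16 ± 0.16 with overlapping groups (95% interval -0.22 to 0.54).

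No gene of the response to vasopressin passed the unadjusted threshold. Avpr2, the vasopressin V2 receptor, measured 0.32, 0.02, 0.31 and 0.49 in the +/- arrays against 0.43, 0.53, 0.65 and 0.61 in SDHD-ESR. Only replicate 1 of SDHD-ESR fell within the +/- range, and the difference was 0.27 ± 0.12 (exact permutation test, two-sided p = 0.0571; limma adjusted p = 0.633), with both features on the same side (0.29 and 0.25). Aqp2, the water channel that vasopressin moves to the luminal membrane, measured -0.14, -0.15, 0.32 and 0.00 in the +/- arrays against 0.74, 0.24, -0.24 and -0.23 in SDHD-ESR. It was higher in SDHD-ESR on slide 1 (by 0.63) and lower on slide 2 (-0.39), which left 0.12 ± 0.24 over all arrays. Aqp4, a water channel of the basolateral membrane, split in the same way, with 0.94 on slide 1 and -0.41 on slide 2 (0.27 ± 0.28 in all). Aqp3, the other basolateral water channel, differed by -0.20 ± 0.15, with -0.04 on slide 1 and -0.35 on slide 2.

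Of the sodium pump only Fxyd4 (CHIF), a regulatory subunit of the collecting duct, could be tested among the members, with a difference of 0.17 ± 0.16. All 4 intercalated cell members were higher in SDHD-ESR, with a median of 0.13, though Slc4a1 and Slc26a4 were not on slide 2 (-0.0003 and -0.05). Further genes of these cells, given below, had no shared direction. Atp6v0a4 (chr6:38048483-38124586, minus strand) measured 0.61, 0.21, 0.37 and 0.58 in the +/- arrays against 1.16, 1.17, 0.75 and 0.67 in SDHD-ESR. Every SDHD-ESR array was above every +/- array, and slide 1 again held the higher SDHD-ESR values. The difference was 0.49 ± 0.16 (SE), a fold of 1.41 (exact permutation test, two-sided p = 0.0286; limma adjusted p = 0.536). Atp6v1b1, another subunit of the same proton pump, differed by 0.13 ± 0.11. Slc4a1, the chloride bicarbonate exchanger of acid-secreting cells (also of red blood cells), differed by 0.13 ± 0.16, and Slc26a4 (pendrin), the exchanger of bicarbonate-secreting cells, by 0.11 ± 0.16.

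Each slide held 2 arrays of each group, so the differences can be read within a slide. The median difference of the 29 members was 0.26 on slide 1 and 0.03 on slide 2, against 0.03 and -0.01 over all genes. For the principal cell genes it was 0.47 and -0.17. Slc12a3 differed by 0.52 on slide 1 and 0.24 on slide 2, Scnn1a by 0.97 and 0.11, and Atp6v0a4 by 0.75 and 0.23. All 3 were thus higher on each slide, and each by more on slide 1, and whether the slides differed was not tested.

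**Figure D3:**
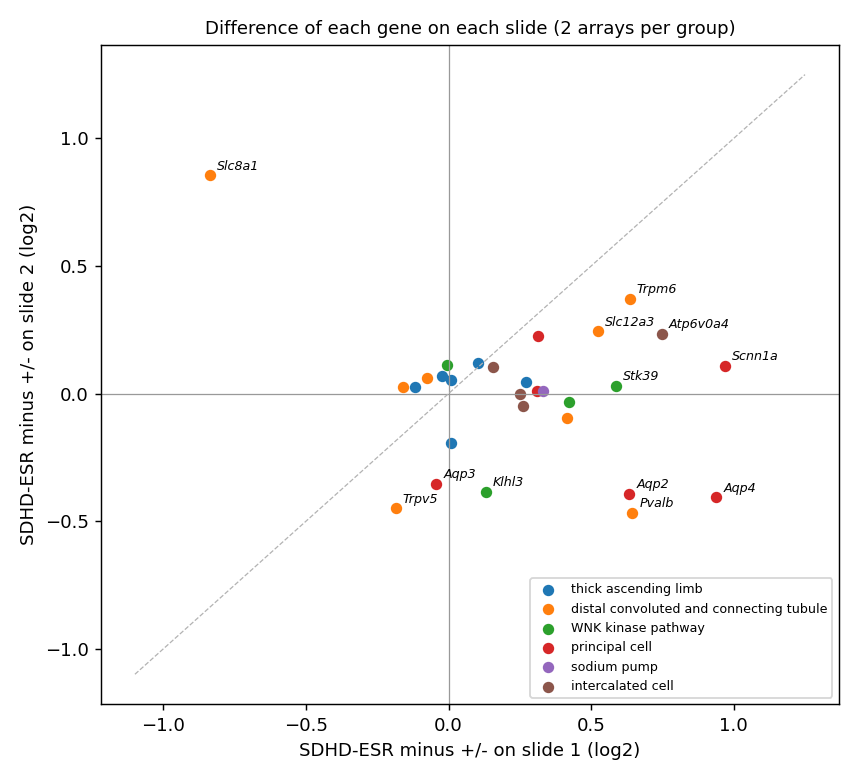
Difference between SDHD-ESR and +/- (log2, 2 arrays per group) on slide 1 (horizontal axis) and on slide 2 (vertical axis) for each tested gene, coloured by role, with the line of equal differences dashed. Of the 29 points 21 lie right of the vertical zero line and 21 below the dashed line, with Scnn1a at 0.97 and 0.11 and Aqp4 at 0.94 and -0.41, while Slc8a1 stands alone at the upper left.

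Against the +/+ pool, +/- kidneys had 1 member higher at an adjusted p of 0.05 or less (Atp6v0a4, 0.44 ± 0.19, SD, n = 4; limma adjusted p = 0.035) and 0 lower, where 11.6% of all genes were higher and 6.68% lower. SDHD-ESR kidneys had 11 members higher and 0 lower, where 16.3% of all genes were higher and 8.77% lower. These were Slc12a3, Trpm6, Wnk1, Wnk4, Stk39, Scnn1a, Scnn1b, Aqp4, Avpr2, Fxyd4 and Atp6v0a4, at 1.21-fold (Wnk1) to 1.91-fold (Atp6v0a4) of the pool. Mean levels of these 11 genes in +/- were also above the pool, from 0.07 (Slc12a3) to 0.44 (Atp6v0a4). Both comparisons share the same pool, whose own spread is left out, and without a dye swap the dye and the pool cannot be told apart.

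Further genes of the same cells were read from lists of known markers. Of 11 other principal cell genes, 4 were higher and 1 was lower at the unadjusted threshold of 0.05, and 0 passed adjustment. Over all genes 4.04% were higher and 3.86% lower at that threshold, and 2.87% lay wholly higher. Edn1 (endothelin-1, which in the collecting duct restrains sodium uptake and is also made by endothelium) measured -0.46, -0.72, -0.52 and -0.33 in the +/- arrays against 0.00, 0.12, 0.38 and 0.00 in SDHD-ESR, as the mean of 10 features. Its groups did not overlap, and the difference was 0.64 ± 0.12 (exact permutation test, two-sided p = 0.0286; limma adjusted p = 0.341), with 0.65 on slide 1 and 0.62 on slide 2. Its features were uneven, with 8 higher and 2 lower and differences from -0.22 to 1.81 (median 0.42), and as deposited the groups of Edn1 overlapped. Against the pool, Edn1 was at 0.70-fold in +/- (limma adjusted p = 0.0146) and at 1.09-fold in SDHD-ESR (limma adjusted p = 0.321). The other 3 that were higher encode transcription factors, Tfcp2l1 (0.37 ± 0.12), Grhl2 (0.40 ± 0.14) and Elf5 (0.38 ± 0.16), each with overlapping groups. Against the pool, Grhl2 was at 0.77-fold in +/- and 1.02-fold in SDHD-ESR. Tfcp2l1 was at 1.17-fold and 1.52-fold, and Elf5 at 1.14-fold and 1.49-fold. The lower gene was Nr3c2, the mineralocorticoid receptor that aldosterone binds, at -0.31 ± 0.12. It measured 0.07, -0.16, 0.15 and -0.26 in the +/- arrays against -0.52, -0.26, -0.22 and -0.44 in SDHD-ESR, and the groups overlapped by replicate 4 of +/-. As deposited its difference was -0.05.

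**Figure D4:**
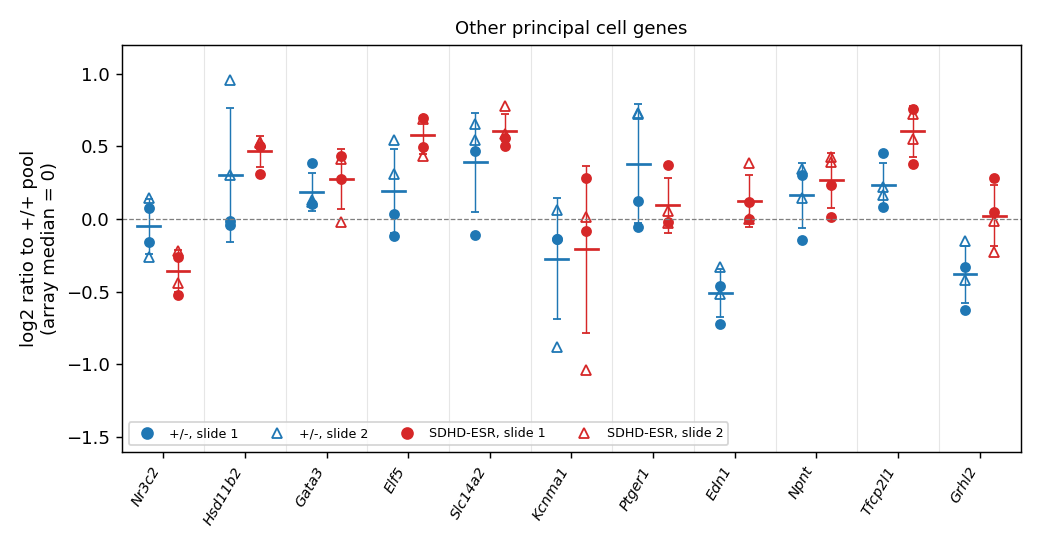
Log2 ratio to the +/+ pool (vertical axis, array median = 0) of 11 further principal cell genes on each array, with colours, symbols and bars (group mean ± SD, n = 4 arrays) as in the plot of all tested genes. Edn1 is the gene whose red points all stand above its blue points, and Nr3c2 the one of lowest mean difference (-0.31).

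Of 16 tested further intercalated cell genes, 9 were higher and 7 lower in SDHD-ESR, with a median difference of 0.05. At the unadjusted threshold of 0.05, 2 were higher and 0 lower, against 4.04% and 3.86% of all genes. These were Aqp6, an aquaporin of acid-secreting cells, at 0.43 ± 0.16, and Rhcg, an ammonia channel, at 0.23 ± 0.09, and the groups of Rhcg did not overlap. Insrr, a receptor of bicarbonate-secreting cells, lay wholly lower in SDHD-ESR, at -0.16 ± 0.08, without passing the unadjusted threshold. Among 9 further genes of the thick ascending limb and macula densa, 3 were higher and 6 lower. Of these Irx1, a transcription factor, was lower by that threshold (-0.29 ± 0.11), without overlap. Of 7 further subunits of the sodium pump and its regulators, 3 were higher and 4 lower, and Fxyd6 was lower by that threshold (-0.25 ± 0.09), without overlap. Over all genes 2.87% lay wholly higher and 2.85% wholly lower. As deposited, the groups of Rhcg, Insrr, Irx1 and Fxyd6 overlapped, and the differences were 0.49 for Rhcg, 0.10 for Insrr, -0.03 for Irx1 and 0.01 for Fxyd6, so the direction of Insrr and Fxyd6 turned. Of 13 tested further distal tubule genes 11 were higher and 2 lower, with a median difference of 0.12, and none passed the unadjusted threshold. Among them Sgk1, the aldosterone-induced kinase, was at 0.26 ± 0.29 and Nedd4l, the ligase that removes the sodium channel, at 0.21 ± 0.14. The 4 osmolyte genes tested were all higher, from 0.10 to 0.35, and none passed.

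Markers of other kidney cells also differed, and their part in the results was not tested. None of them passed an adjusted p of 0.05 between SDHD-ESR and +/-. At an unadjusted p of 0.05 or less, 4.04% of all genes were higher and 3.86% lower. Their counts depend on the centring, without which the median difference of all genes is 0.28. Of 6 endothelial markers 5 were lower, 4 of them at an unadjusted p of 0.05 or less (Kdr, Tek, Cdh5 and Emcn, -0.36 to -0.43), with array medians of the list from 0.01 to 0.31 in +/- and from -0.29 to -0.05 in SDHD-ESR. As deposited, 4 endothelial markers were lower and 2 higher, 0 of them at that threshold. Of 6 fibroblast markers 5 were lower, 2 of them at that threshold (Col3a1 and Pdgfrb; 4 lower, 2 higher and 0 at the threshold as deposited), with list medians from -0.60 to 0.04 in +/- and from -0.80 to -0.50 in SDHD-ESR. All 6 measured macrophage markers were lower, none at that threshold (2 lower and 4 higher as deposited), with list medians from -0.63 to -0.29 and from -0.87 to -0.51. Of 5 tested markers of tubular injury 4 were higher, with and without centring, Lcn2 by 0.56 ± 0.19 and Sox9 by 0.62 ± 0.21 at an unadjusted p of 0.05 or less, with list medians from -1.03 to -0.17 in +/- and from -0.64 to 0.30 in SDHD-ESR. The 7 tested features of Sox9 disagreed, with differences from -0.72 to 2.86 (5 higher, 2 lower), and the marker that was lower was Havcr1, at -0.44 ± 0.38. Against the pool, 2 injury markers were lower and 0 higher in each group at an adjusted p of 0.05 or less. Of all genes 6.68% were lower in +/- and 8.77% in SDHD-ESR. The 2 were Sox9 (0.44-fold in +/-, 0.67-fold in SDHD-ESR) and Vcam1 (0.66-fold and 0.74-fold), while Lcn2 was at 0.91-fold and 1.34-fold. The median difference of the injury markers was 0.90 on slide 1 and 0.17 on slide 2. Slide 1 also had the larger median over all 29 tested members (0.26 against 0.03) and over the osmolyte genes (0.38 against 0.05). For the thick ascending limb members it had the smaller (0.01 against 0.05). Ratios to a pool do not give levels, so the kidney label could not be checked by the levels of its markers. Of 10 proximal tubule markers 5, among them Lrp2, Slc5a2 and Miox, were near 0 on at least 6 arrays, and of the 5 tested 3 were lower and 2 higher (2 lower and 3 higher as deposited; list medians from -0.19 to 0.25 in +/- and from -0.14 to 0.05 in SDHD-ESR). Of the 3 lower, Slc34a1 and Slc22a6 lay within 0.047 and 0.023 of 0 on every array before centring, so their differences are those of the array medians. The 4 podocyte markers tested were all lower, from -0.19 to -0.02, and all higher as deposited, and none passed (list medians from 0.09 to 0.44 in +/- and from -0.24 to 0.39 in SDHD-ESR).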

How the data were processed

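Kidney RNA was hybridised to Agilent 4x44k mouse arrays, 200 ng per labelling, the 8 test samples being labelled with Cy5 and the +/+ pool with Cy3, without a dye swap. The authors scanned the arrays in a GenePix scanner and processed them in Multi-Experiment Viewer, and the values they deposited are described as log ratios of the channels, most of them on a log2 scale by their values. For background correction and normalization, the method is not given in the sources used here. Whole numbers (9.03% of the deposited values, some too large for a log2 ratio) were set to missing, so some true ratios may have been dropped. The row order of the deposited table did not follow the array's feature numbers, and the layout of 532 rows by 85 columns was inferred from the values. With it r between the first 2 repeated features of an accession was 0.334 over 5336 accessions, against 0.004 over 5218 for plain row numbers. A wrong layout would misname every gene.

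Signs were turned so that Sdhd falls, arrays were centred on their medians, features within 0.01 of 0 on at least 6 arrays (1078) were left out, and all features of 1 gene were averaged. Genes with at least 3 values in each group (20076) entered a limma fit (version 3.58.1, R 4.3.3) with a mean per group over all 8 arrays, two-sided, with Benjamini-Hochberg adjustment and a threshold of 0.05. Exact permutation tests over arrays stand beside single differences. The smallest p of 4 against 4 arrays is 0.0286. Nothing says whether the 4 arrays of a group came from separate litters or days, so p-values measure the spread between these pools of 2 mice. Gene names came from the platform annotation, in which 33026 of 45220 features had 1 symbol. The members, the marker lists, the tests and the rule for named genes (every member accounted for, array values for those past an unadjusted p of 0.05 or without overlap and for up to 2 others per role; of other lists at most 4 by smallest p) were chosen with earlier results of these data known. Sgk1, Nedd4l, Insrr, Havcr1, the proximal tubule genes and the array values of Scnn1g fell outside it and were picked once their values were known. The limma fit was first run on simulated gene values of known change, and the simulation did not cover the other steps. Of genes given a log2 change of 0.5, 18% were called, and of those given a change of 2, 70%. The simulated set held 50 genes at each change of 0.5, 1, 2 and 3. In the data only 3 genes passed, so these rates need not hold for the members. Of 19876 unchanged genes 11 were called. Alternatives were values as deposited, quantile normalization, other treatment of near-0 features and whole numbers, complete features, single features, blocks for slide and replicate number, robust moderation, and each array left out. Depth does not apply to arrays, and their number limits the precision.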

Additional observations from a re-analysis of the deposited data

Results flagged for a closer look

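In each group of 4 arrays it was tested whether the highest or lowest array stood apart from the others by more than Dixon's critical value (gap over range), and 2 of 58 groups did, where chance gives about 1 in 20. Slc12a1, the cotransporter of the thick ascending limb, was at 0.461 in replicate 4 of +/-, against -0.0778 to -0.0029 in the other 3 arrays (gap over range 0.861). Without that array the difference of Slc12a1 between SDHD-ESR and +/- was 0.28 ± 0.09 and passed the unadjusted threshold (limma adjusted p = 0.588). Calb1, the calbindin of the distal tubule, was at -0.509 in replicate 1 of +/-, against 0.0245 to 0.1032 in the other 3 (gap over range 0.871).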

How the results depend on the processing

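No member passed an adjusted p of 0.05 in SDHD-ESR against +/- under any of the alternatives run. Among the 29 members of the main setting the lowest adjusted p was 0.396, with slide as a block. The count of members higher at an unadjusted p of 0.05 or less was 3 in the main setting, 5 with only features that had all 8 values, and 2 to 7 when each array was left out, with 7 without replicate 4 of +/- and 6 without replicate 4 of SDHD-ESR, while 0 were lower throughout. The 7 was out of 30 members, as 1 value fewer was required per group with an array left out and Scnn1g then entered. The median difference of the members was 0.12, and 0.38 as deposited, since the SDHD-ESR arrays have higher medians. It ran from 0.04 to 0.20 when each array was left out (lowest without replicate 2 of +/-, highest without replicate 3 of +/-). As deposited, 6 members changed sign, among them Kcnj1 (0.21), Cldn19 (0.17), Kcnj16 (0.19), Klhl3 (0.13) and Aqp3 (0.06). Slc12a3 missed the unadjusted threshold as deposited (0.64 ± 0.35) and Atp6v0a4 under quantile normalization (0.35 ± 0.16). Scnn1a missed it without replicate 1 or 2 of +/- (0.53 and 0.46) and without replicate 1 or 2 of SDHD-ESR (0.47 and 0.41). Same-numbered arrays did not deviate together (r from -0.02 to 0.03, across genes). Differently numbered arrays of the same slide gave r from -0.03 to 0.06, so r cannot decide whether the numbers pair the arrays. With the replicate number as a block 0 members passed adjustment and 2 were higher at an unadjusted p of 0.05 or less, Scnn1a no longer among them. The cause of these shifts was not tested. Few arrays, an inferred layout and spots near 0 limit what can be read.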
